A study of Ramazzottius varieornatus and Hypsibius exemplaris with 16 samples.

Results

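In the tardigrade Ramazzottius varieornatus, 122 transcripts that were well expressed in whole animals were found in a single storage cell library, replicate 2, while their counts rounded to 0 in the remaining 4 libraries of storage cells. Their levels in that library ran from far below to well above the whole-animal level. A target here is a transcript model of the deposited tables. The 122 targets, of 121 genes, were chosen from 14532 targets by measured values. Each had a length under 9000 bases, a whole-body mean of 20 CPM or more, a count that rounded to 0 in storage cell replicates 1, 3, 4 and 5, and a count above 0 in replicate 2. CPM is the estimated count divided by the library total and multiplied by 1000000, without further scaling unless stated. Of the 6054 targets that met the length and whole-body limits, 153 were at 0 in replicates 1, 3, 4 and 5. They are called candidates below, and the members are the 122 of them present in replicate 2.

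RNA was sequenced from active whole animals (3 libraries) and dissected storage cells (5 libraries) of the strain YOKOZUNA-1, kept at 22 °C on agar and fed on Chlorella vulgaris, with the same numbers of libraries for Hypsibius exemplaris of the strain Z151, kept at 18 °C. The labels name no transgene, agent or age for any group. Whole animals were homogenised and their RNA was purified, whereas storage cells were aspirated after opening the animal and lysed directly, so sample type and preparation cannot be told apart. How many animals or cells entered a library is not stated. The titles call the libraries biological replicates and nothing says whether they came from separate cultures, so p-values measure the spread between these libraries, which may be technical.

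Storage cells are free cells that float in the body cavity of tardigrades. They are known for holding reserves such as lipid and glycogen, and they drift among muscles, nerves, gut, gonad and epidermis, which a whole-animal sample holds as well. A transcript that is abundant in whole animals and missing from storage cells is therefore one that other cells of the body can supply. In a sample pooled from a tissue, fewer cells of a type and less RNA per cell cannot be told apart.

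The identifiers of the targets matched 0 entries of the table of R. varieornatus genes used here, which names genes in another way. No member is therefore given a gene name, a role or a position, and whether a library holds markers of muscle, nerve, gut, gonad or of storage cells themselves was not tested. Lengths are coding lengths, since 99.6% of all target lengths and those of 122 of 122 members were multiples of 3.

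Estimated counts summed to between 5404555 and 5601269 per whole-body library. Storage cell totals ran from 8228370 to 11174369, and replicate 2 had 9977956. Of the 6054 whole-body targets storage cell replicate 2 had 123 at 0. Replicate 4 had 353 and replicates 1, 3 and 5 had 685 to 902, so the gap between replicate 2 and the next library was 0.295 of the group's range. The members were chosen on this library, so the results below rest on it and none can be given without it.

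The members took up 0.539% of the counts of storage cell replicate 2 and 1.13%, 1.24% and 1.32% of those of whole bodies 1, 2 and 3. In the other 4 storage cell libraries, 39195429 counts in all, none of them had a rounded count. A floor of 3 counts over those libraries is 0.0765 CPM, so the members' whole-body means lay at least 264-fold to at least 24731-fold above it. The rule asked for 20 CPM or more in whole bodies and a rounded count of 0 there, so the lowest of these limits restates the rule. Such limits, and the intervals given below, cover counting error only: copies made by PCR were not marked, so reads do not count molecules.

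The level in replicate 2 divided by the whole-body mean, called the ratio below, differed between members by a factor of up to 49748. Its median was 5.30%, with 0.275% at the 10th and 159% at the 90th percentile. It was 1 or more in 23 members, between 0.1 and 1 in 36, between 0.01 and 0.1 in 39, and under 0.01 in 24. In 20 members replicate 2 lay above each of the 3 whole-body values, in 96 it lay below each of them, and in 6 it fell among them. The number at 1 or more depended on the scale. It was 22 with TMM-scaled CPM and 13 with the deposited TPM (which divides counts by length before scaling). These values describe the choice of members and were not tested.

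**Figure D1:**
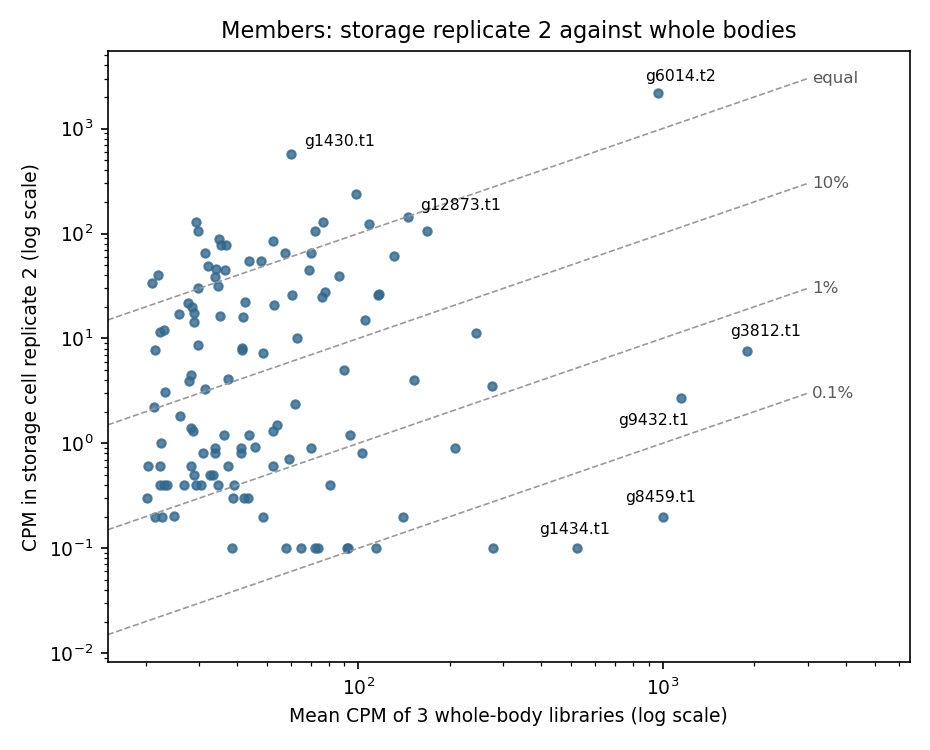
Each point is 1 of the 122 members, with its mean CPM in the 3 whole-body libraries on the horizontal axis and its CPM in storage cell replicate 2 on the vertical axis, both on log scales. Dashed lines mark equal levels and 10%, 1% and 0.1% of the whole-body level. The points do not follow any 1 line, and 23 of them lie on or above the line of equal levels.

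The member with the most counts was g6014.t2, a coding sequence of 1245 bases. It had 928, 1020 and 946 CPM in whole bodies 1, 2 and 3 and 2166 CPM (21615 counts) in storage cell replicate 2. Replicate 2 was above the 3 whole-body values, which lay close together, and the other 4 storage cell libraries rounded to 0. The ratio was 2.25 (exact Poisson 95% interval 2.22 to 2.28), or 1.38 on the TPM scale. This target alone held 40.2% of the members' counts in replicate 2, and it ranked 114th of all targets there by TPM.

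The other isoform of the same gene, g6014.t1, is no member because 2 of the other storage cell libraries held a few counts of it. It had 3, 0, 0 and 3 counts in replicates 1, 3, 4 and 5 and 4099 counts in replicate 2. Its whole-body level was 214 ± 24.2 CPM (SD, n = 3), against 411 CPM in replicate 2. Counts of g6014.t2 were not whole numbers in every library, so reads were shared between targets and the split between the isoforms is uncertain. Summed over both isoforms, the gene had 6172, 6561 and 6646 counts in the whole bodies and 25714 in replicate 2.

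The highest ratio was that of g1430.t1 (735 bases). It had 49.6, 74.6 and 56.2 CPM in the whole bodies and 574 CPM (5727 counts) in replicate 2. The ratio was 9.54 (exact Poisson 95% interval 9.3 to 9.79), or 6.43 on the TPM scale. On either scale replicate 2 stood well above the whole bodies, whose highest value was in replicate 2 of that group.

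The next ratios were those of g999.t1, g10583.t1 and g382.t1. Target g999.t1 (1488 bases) had 23.4, 35.5 and 28.7 CPM in the whole bodies and 129 CPM in replicate 2, a ratio of 4.42. Target g10583.t1 (873 bases) had 27.4, 37.2 and 24.8 CPM in the whole bodies and 106 CPM in replicate 2, a ratio of 3.56. Target g382.t1 (1026 bases) had 25.6, 48.5 and 30.5 CPM in the whole bodies and 88.9 CPM in replicate 2, a ratio of 2.55. All 3 were higher in whole body 2 than in whole bodies 1 and 3, and all 3 were also above the whole bodies on the TPM scale, with ratios of 2.66, 2.18 and 1.57.

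Other members with many counts in replicate 2 were nearer to the whole-body level. Target g13450.t1 (750 bases) had 84.2, 123 and 86.4 CPM in the whole bodies and 236 CPM in replicate 2. Target g3161.t1 (1239 bases) had 78.3, 82.2 and 69.6 CPM in the whole bodies and 129 CPM in replicate 2. Both were above each whole-body library on the CPM scale, with ratios of 2.41 and 1.69, and on the TPM scale their ratios were 1.6 and 1.07. Target g9581.t1 (1344 bases) had 66.7, 79.7 and 68.9 CPM in the whole bodies and 106 CPM in replicate 2. Target g6.t1 (1539 bases) had 111, 108 and 106 CPM and then 123 CPM. For these 2 the direction depended on the scale, since their CPM ratios of 1.48 and 1.14 became TPM ratios of 0.918 and 0.737.

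Target g12873.t1 (1776 bases) had 129, 175 and 131 CPM in the whole bodies and 145 CPM in replicate 2, within the whole-body range. Its TPM ratio was 0.634. The other isoforms of the gene had 1792 and 737 counts in replicate 2. Over all 3 isoforms, the gene had 3974 counts in replicate 2 and 4, 0, 1 and 1 counts in replicates 1, 3, 4 and 5.

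The members that were most abundant in whole bodies, other than g6014.t2, were nearly missing from replicate 2. Target g3812.t1 (2976 bases) had 1583, 1785 and 2311 CPM in the whole bodies and 7.62 CPM (76 counts) in replicate 2. Its ratio was 0.402% (exact Poisson 95% interval 0.317% to 0.504%). Target g9432.t1 (1929 bases) had 1094, 1089 and 1260 CPM in the whole bodies and 2.71 CPM (27 counts) in replicate 2, a ratio of 0.236% (exact Poisson 95% interval 0.155% to 0.343%). For both targets replicate 2 lay far below the lowest whole body.

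Targets g8459.t1, g1434.t1, g1159.t1 and g968.t1 had the lowest ratios. Target g8459.t1 (2019 bases) had 814, 964 and 1229 CPM in the whole bodies and 2 counts in replicate 2, a ratio of 0.02% with an exact Poisson 95% interval of 0.00242% to 0.0722%. Target g1434.t1 (5301 bases) had 395, 542 and 630 CPM in the whole bodies and 1 count in replicate 2. Its ratio was 0.0192% (exact Poisson 95% interval 0.000486% to 0.107%). With 1 count each, g1159.t1 (2673 bases, 278 ± 51.4 CPM in whole bodies, SD, n = 3) and g968.t1 (1149 bases, 114 ± 15.2 CPM, SD, n = 3) had ratios of 0.036% and 0.0876%. Presence of these 4 rests on 1 or 2 counts, which lie within counting error of 0. In whole bodies, g8459.t1, g1434.t1, g1159.t1 and g3812.t1 were all highest in replicate 3.

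**Figure D2:**
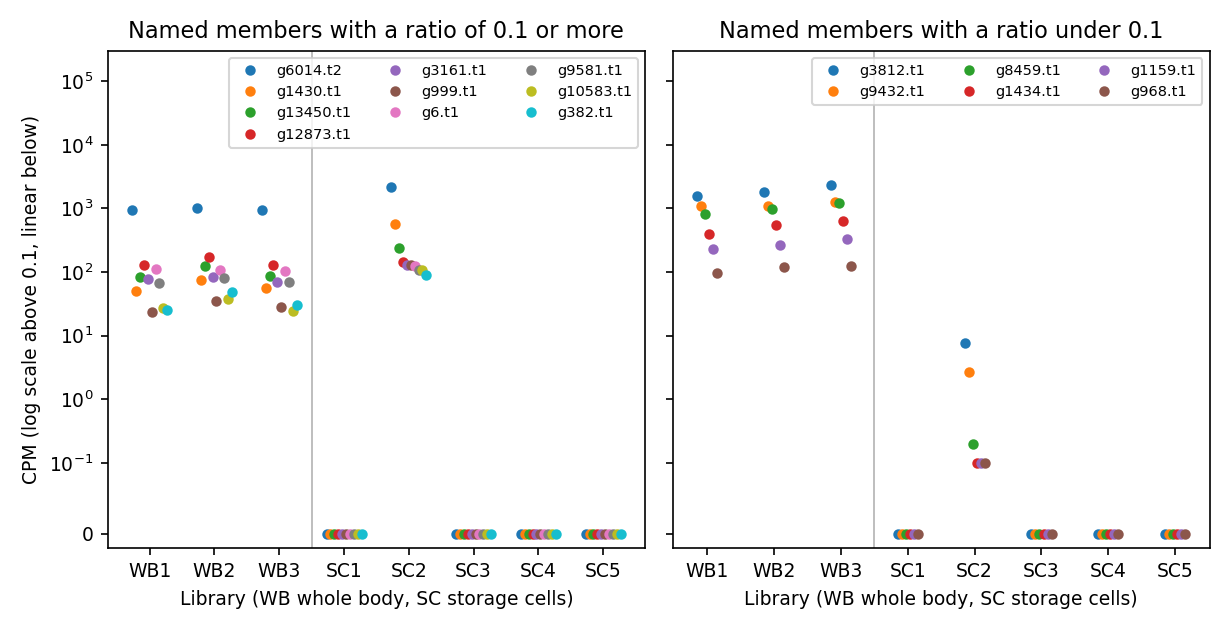
CPM of the 16 named members in each of the 8 R. varieornatus libraries (WB whole body, SC storage cells), 1 point per target and library, on an axis that is logarithmic above 0.1 and linear below. The members on the left have 88.9 to 2166 CPM in storage cell replicate 2 and those on the right 0.1 to 7.62 CPM. In the other 4 storage cell libraries all their counts round to 0, and the points there are drawn at 0 in place of the CPM.

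Over all members, the counts in replicate 2 had a median of 34 and ran from 1 to 21615. They were at least 10 in 75 members, at least 100 in 49 and at least 1000 in 10, while 20 members had 1 to 3 counts and 10 of these had 1. Requiring at least 10 counts left 75 members and raised the median ratio to 46.1%. Presence at high counts therefore applied to a part of the members, and the lowest ratios belong to targets near the limit of detection.

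Levels in replicate 2 hardly followed the levels in whole bodies. Over the 122 members, which share their libraries, the rank correlation of CPM between replicate 2 and the whole-body mean was 0.09. The 73 members of 20 to 50 CPM in whole bodies had a median ratio of 10.3%, and the 29 of 50 to 100 CPM one of 5.61%. It was 22.3% in the 11 of 100 to 200 CPM and 0.402% in the 9 of at least 200 CPM, so the medians followed no order. The share of candidates present was 77.7% of 94 at 20 to 50 CPM, 82.9% of 35 at 50 to 100 CPM, 78.6% of 14 at 100 to 200 CPM and 90% of 10 above that.

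The members did not share 1 ratio to whole bodies. At the ratio of g1434.t1, g6014.t2 would have had 1.85 counts in replicate 2, where it had 21615. The pooled ratio of the candidates was 38.6%, or 24.8% without g6014.t2, and the counting interval of 3 members held the latter value. These ratios are built from the values that chose the members, and their intervals cover counting error only. The 31 candidates at 0 in replicate 2 had a median of 30.0 CPM in whole bodies (20.4 to 218), against 41.2 CPM in the members. The part of whole-animal RNA mixed into the library, of RNA from a particular other cell type and of uneven amplification was not tested.

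The same count was made with each other storage cell library in the place of replicate 2. Replicate 2 had 122 of 153 candidates (79.7%, exact Clopper-Pearson 95% interval 72.5% to 85.8%). Replicate 1 had 5 of 36 (13.9%), replicate 3 had 12 of 43 (27.9%), replicate 4 had 10 of 41 (24.4%) and replicate 5 had 9 of 40 (22.5%). Each of these denominators is the same 31 targets absent everywhere plus the library's own targets, and replicate 2 was chosen for its number, so the shares describe the choice and are no test. The targets that were found in replicates 1, 3, 4 or 5 alone had 29, 1343, 3091 and 142 counts, summed over 5, 12, 10 and 9 targets. In replicate 2 the sum was 53759 over 122 targets, and g6014.t2 held 40.2% of it. Such sums grow with the number of targets, so they are not compared. In those 4 libraries the ratio reached 1 in 0 of 5, 1 of 12, 1 of 10 and 0 of 9 targets, against 23 of 122 in replicate 2. Their median ratios were 0.465%, 4.98%, 3.46% and 1.72%, over 5, 12, 10 and 9 targets. The median of 5.30% in replicate 2 itself moved between 3.25% and 16.1% when 1 library was left out, so no order is read from these medians. After all 5 storage cell libraries had been thinned to the depth of the shallowest, the share in replicate 2 was 80.3%.

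**Figure D3:**
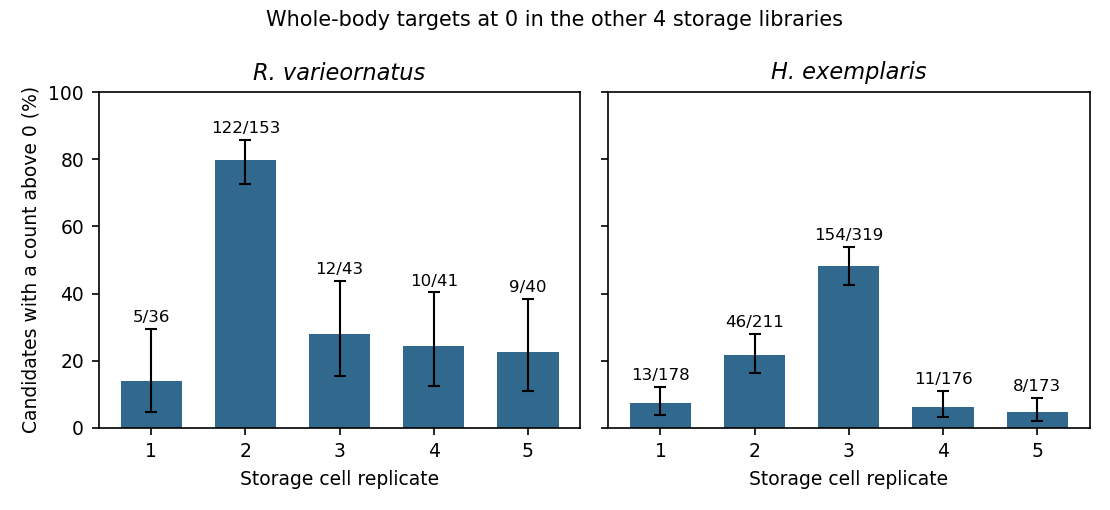
Share of candidates with a count above 0 in each storage cell library, where the candidates of a library are whole-body targets at 0 in the other 4 storage cell libraries of its species. Bars start at 0, error bars are exact Clopper-Pearson 95% intervals and the labels give present over candidates. Replicate 2 of R. varieornatus has 122 of 153 and no other library of the species more than 12.

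In H. exemplaris the largest such set was in storage cell replicate 3, with 154 of 319 candidates (48.3%, exact Clopper-Pearson 95% interval 42.7% to 53.9%). Of those 154 targets, 4 reached the whole-body level and 52 reached a ratio of 0.1. In R. varieornatus replicate 2 the corresponding numbers were 23 and 59 of 122. No test was made between the species, since each has 1 such library.

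Whole-body replicates, of which the rule used only the mean, split the members by their ratio. Of the 23 members with a ratio of 1 or more, 21 (91.3%) had their highest whole-body value in whole body 2. This was so for 19 of 36 members (52.8%) with a ratio of 0.1 to 1, for 10 of 39 (25.6%) with 0.01 to 0.1, and for 3 of 24 (12.5%) under 0.01. Among all 6054 whole-body targets it was 40.1%, and among the 31 candidates absent from every storage cell library it was 7 (22.6%). The value in whole body 2 divided by the mean of whole bodies 1 and 3 had a median of 1.22 in the members with a ratio of 1 or more and of 0.93 in those under 0.01, against 1.02 over all whole-body targets. The classes were set after the values had been seen, and the pattern is a description without a test.

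**Figure D4:**
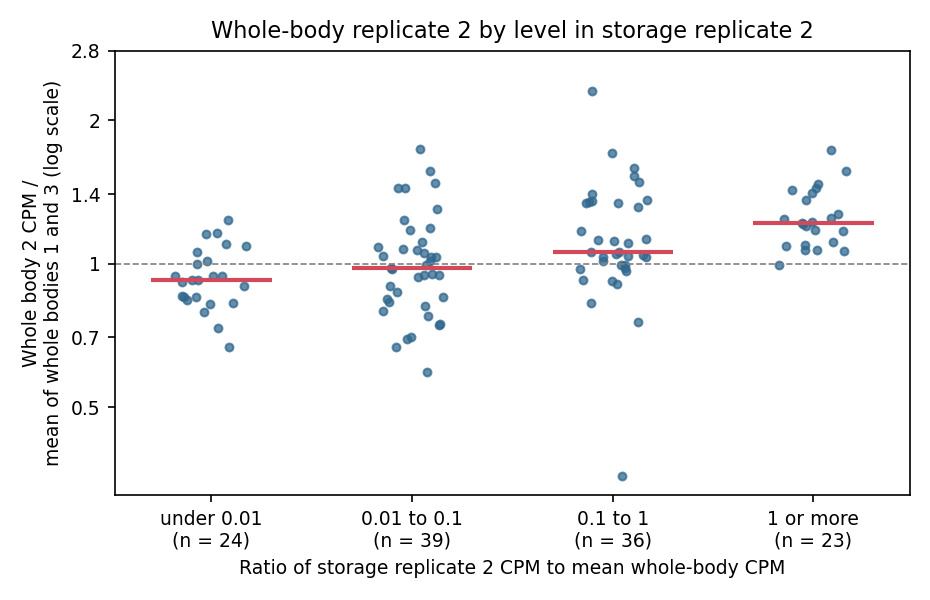
CPM in whole body 2 divided by the mean CPM of whole bodies 1 and 3, on a log scale, for the 122 members in 4 classes of their ratio in storage cell replicate 2. Points are targets, spread sideways for legibility, and red bars are medians, which run from 0.93 in the lowest class to 1.22 in the highest.

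The split by whole body was seen in each class of length. Among members under 1200 bases, whole body 2 was highest in 12 of 16 with a ratio of 0.1 or more and in 2 of 13 below that. From 1200 to under 2100 bases it was highest in 17 of 22 and 6 of 23, and from 2100 bases on in 11 of 21 and 5 of 27. Over the 122 members the rank correlation between the ratio and the relative level in whole body 2 was 0.51. It was 0.45 when the ratio was taken to whole body 2 alone, which works against such a relation. Over all 6054 whole-body targets it was -0.01, so the relation did not extend to targets in general.

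Targets outside the rule were looked at in the same way. A panel of 1018 whole-body targets was chosen without replicate 2, each at least 4-fold lower in storage cell replicates 1, 3, 4 and 5 than in any whole body. After the 122 members had been set aside, 896 remained. Whole body 2 was highest in 78 of 105 (74.3%) with a ratio of 1 or more in replicate 2, in 192 of 313 (61.3%) with 0.1 to 1, in 60 of 227 (26.4%) with 0.01 to 0.1 and in 64 of 251 (25.5%) under 0.01. The 37 targets nearest to the members, with at most 1 count in each of the other 4 storage cell libraries, were too few for a clear order. In the same classes whole body 2 was highest in 8 of 13 (61.5%), 9 of 13 (69.2%), 1 of 6 (16.7%) and 2 of 5 (40%). Of the 29 with 1 count over those libraries it was highest in 4 of 8 (50%), 7 of 11 (63.6%), 1 of 5 (20%) and 2 of 5 (40%). Whole body 2 and storage cell 2 share a replicate number, but nothing in the labels ties them. Over 10483 targets their deviations from their group means had a correlation of 0.03. A correlation over all targets cannot decide whether the 2 libraries are tied, since the pattern was seen in a part of the targets.

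The members were one end of a wider difference between replicate 2 and the other storage cell libraries. In the panel of 1018 targets, replicate 2 had a median of 6.81% of the whole-body level and reached or passed that level in 128 targets (12.6%), while the mean of the other 4 had a median of 1.18%. With the members set aside the median in replicate 2 was 6.85%. Panels chosen in the same way without replicate 1, 3, 4 or 5 held 681 to 725 targets, of which 3 to 8 reached the whole-body level in the library left out. These panels admitted only targets low in replicate 2, and each held 74 members, which the rule puts at 0 in the library left out. They are therefore not the same targets as the panel of 1018.

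The opposite panel held targets at least 4-fold above every whole body in each of 4 storage cell libraries, with a mean of at least 20 CPM there. Chosen without replicate 2 it held 142 targets, and all 142 were at or above the whole-body mean in replicate 2. Their median there was 4.29-fold above whole bodies, against 11.9-fold for the mean of the other 4. When replicate 1, 3, 4 or 5 was left out, its own median was 7.86-fold to 11.3-fold. Replicate 2 therefore held the targets that were high in the storage cell group, along with targets that were low in that group. The panels for the other libraries were chosen with replicate 2 among the 4, which makes them smaller. Targets less than 4-fold high in replicate 2 could enter its own panel only. Its median was the lowest of the 5 libraries, but this is partly built into the choice and no order is read from it.

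**Figure D5:**
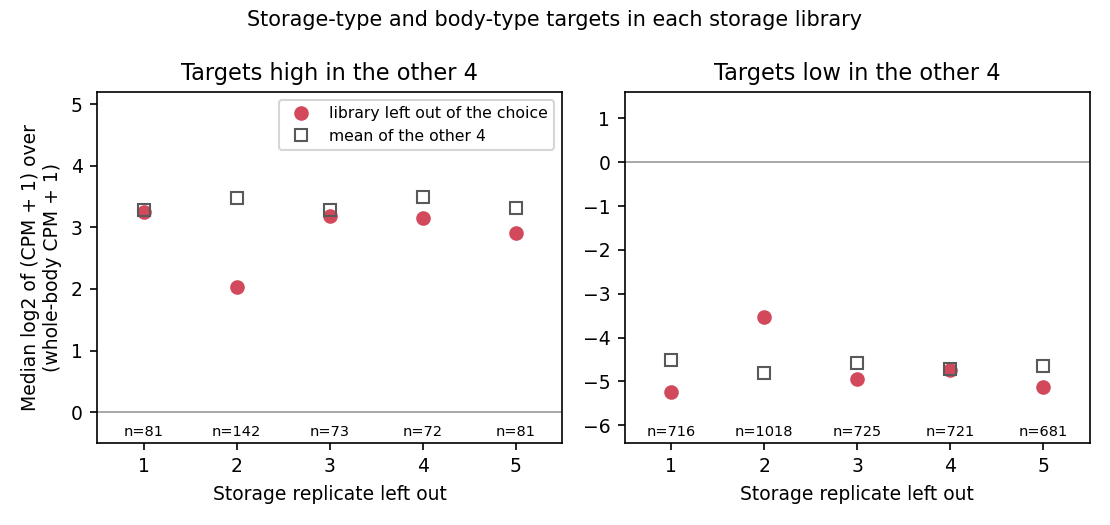
Median log2 of (CPM + 1) over (whole-body CPM + 1) for targets at least 4-fold high (left) or low (right) in 4 storage cell libraries, shown for the library left out of the choice (filled) and for the mean of the other 4 (open). Replicate 2 has 2.04 against 3.48 on the left and -3.53 against -4.80 on the right, the farthest from its open symbol in each panel. The targets differ with the library left out, so the libraries are not compared over the same targets.

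Over the 6054 whole-body targets, the rank correlation with the whole-body mean was 0.34 in replicate 2 and lay between 0.26 and 0.32 in replicates 1, 3, 4 and 5. The mean rank correlation with the rest of the storage cell group was 0.62 in replicate 2 and 0.73 to 0.77 in the others. These are correlations across targets, which are not independent.

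Members were not confined to short or long sequences. Their lengths ran from 378 to 6321 bases with a median of 1842, against 1560 over all whole-body targets and 1368 in the 31 candidates absent everywhere. The length limit did not bear on the choice, since no further target met the other conditions without it. The 29 members under 1200 bases had a median ratio of 13.4%, the 45 from 1200 to under 2100 bases 3.85%, and the 48 of 2100 bases or more 4.79%. A ratio of 1 or more was reached by 9, 12 and 2 of them. The rank correlation between the ratio and length was -0.17 over the 122 members and -0.50 over all 6054 whole-body targets. Over all whole-body targets the median ratio in replicate 2 was 188% under 1200 bases and 40.8% from 2100 bases on. In replicates 1, 3, 4 and 5 it was 98.9%, 119%, 122% and 72.3% under 1200 bases. From 2100 bases on it was 39.6%, 42.4%, 28.8% and 20.8% in these libraries. The part of length in the members' ratios was not tested beyond these classes.

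Whole-body replicates differed more for the members than for other targets, with a median coefficient of variation of 16.2% against 9.22% over all whole-body targets. The median whole-body level was 41.2 CPM in the members and 57.8 CPM over all. In the 31 candidates absent everywhere the median coefficient of variation was 20.7%.

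Members were scattered over the gene numbers of the identifiers. Neighbouring numbers occurred in 2 pairs, g2992.t1 with g2993.t1 and g3880.t1 with g3881.t1, and no run of 3 was found. The members of a pair did not share a level. Target g2992.t1 had a ratio of 0.937 and g2993.t1 one of 0.16, while g3880.t1 had 0.0196 and g3881.t1 0.914. Numbers that differed by 2 occurred in g382.t1 with g384.t1, at ratios of 2.55 and 2.22, and in g4218.t1 with g4220.t1, at 0.469 and 1.83. Whether such numbers are neighbours on the genome is not stated in the tables.

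Isoforms made some of the members less clear. Of the 122 members, 12 belong to 11 genes with several isoforms, and 17 had a count that was not whole (further than 1e-06 from a whole number) in at least 1 library. These are 9.84% and 13.9% of the members, against 5.90% and 9.02% of all whole-body targets. Summed over isoforms, 113 of the 121 genes remained at 0 in the other 4 storage cell libraries. The clearest exceptions were g3048, g9848 and g2238. Gene g3048 had 65, 34, 376 and 11 counts in replicates 1, 3, 4 and 5, all from its other isoform. Gene g9848 had 0, 184, 554 and 108. Gene g2238 had 55 counts in replicate 4, all from its other isoform, against 40 in replicate 2 over both isoforms. In these cases the members g3048.t1, g9848.t2 and g2238.t1 stand for an isoform and not for a gene that the other libraries lack. Both isoforms of g2001 were members, with 301 and 115 counts in replicate 2. Of g13390, t1 was a member with 256 counts in replicate 2, while t2, at 49.9 ± 10.9 CPM in whole bodies (SD, n = 3), had 0 counts in all 5 storage cell libraries.

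The limits of the rule cut through a continuous range. Just inside the whole-body limit were g6144.t1 at 20.2 CPM and g1014.t1 at 20.4 CPM, with 3 and 6 counts in replicate 2. Just outside were g6404.t2 at 19.6 CPM and g8042.t2 at 19.5 CPM, with 136 and 49 counts. Just outside the demand for 0 elsewhere were 29 targets with 1 count over the other 4 libraries. Among them, g10615.t1 had 6051 counts in replicate 2 at 388% of its whole-body level, and g6708.t1 had 5082 counts at 276%.

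In the comparison of all storage cell libraries with whole bodies, 30.2% of the 10483 targets tested differed and 16.6% were lower in storage cells (edgeR quasi-likelihood test, Benjamini-Hochberg adjusted p below 0.05). The median log2 fold change over all targets was -0.14. All 122 members were tested, 64 were called lower and none was called higher. The rule used this contrast, so nothing is read from these numbers. Without storage cell replicate 2, 24.5% of 10360 targets were called lower and 122 of 122 members were, as their zeros require. Calls in favour of storage cells made up 45.0% of all calls. The share was 51.0% with upper-quartile factors, 33.7% with RLE size factors and 12.3% with limma on log2(TPM + 1). The members had no call in that direction under any of these.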

How the data were processed

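The authors deposited 1 table per library holding target identifiers, lengths, estimated counts and TPM, per the file headers, and replicates were not pooled. The submitters' processing notes name kallisto 0.46.1 and bcl2fastq 2. The transcript set and the build were not given in the sources used here. Estimated counts were not normalized by the authors and need not be whole, and the deposited TPM values are scaled to the same total in each library, per the file headers and the values.

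The members and all sets were chosen with earlier results of these data known. Libraries were grouped by their titles. CPM was computed from library totals, and presence from rounded counts. For the background of calls, rounded counts of the 8 R. varieornatus libraries were fitted with edgeR 4.0.16 (R 4.3.3; filterByExpr, TMM, quasi-likelihood test, no covariates, two-sided, Benjamini-Hochberg over all targets tested), and the fit was tested on simulated data. DESeq2 1.42.0 and limma 3.58.1 were alternatives. Intervals are exact Poisson or Clopper-Pearson at 95%. A count of 0 was given a floor of 3 counts over the libraries named.

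Named members are the 8 with the highest CPM in storage cell replicate 2, the 6 with the highest whole-body CPM, the 4 highest and 4 lowest ratios, any run of 3 or more gene numbers, and up to 2 targets on each side of a limit; neighbours, isoforms and g10615.t1 and g6708.t1 among the 29 targets were given as well. The panels, the ratio classes and the comparison of whole-body replicates were added after the data had been seen. Tables were handled in Python 3.11.15 with pandas 2.3.3, numpy 2.4.6 and scipy 1.17.1.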

Additional observations from a re-analysis of the deposited data

Results flagged for a closer look

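Among 7 measures of the 5 R. varieornatus storage cell libraries, 3 picked out a library whose gap to the nearest other exceeded Dixon's critical value of 0.71 of the range. For 1 measure chance is expected to do so in about 1 of 20 groups, and no such rate was computed for the 7 measures together. All 3 picked replicate 2, and they are not independent of each other. That library had been chosen for its targets with such values known, so the first 2 restate the choice. The third is partly bound to it as well. Its panel without replicate 2 held all 122 members. Each other panel held 74 members, which the rule puts at 0 in the library left out, and admitted only targets low in replicate 2.

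The number of whole-body targets found in 1 storage cell library alone was 122 in replicate 2 and 5 to 12 in the others. The share of candidates present was 79.7% in replicate 2 and 13.9% to 27.9% in the others. The median level of the targets low in the other 4 libraries was 0.0681 of the whole-body level in replicate 2, and 0 to 0.0109 in the panels of the other libraries. The rank correlation with whole bodies, the whole-body targets at 0, the median ratio of the targets found alone and the level of storage-high targets did not meet the criterion.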

How the results depend on the processing

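The number of members was 207 and 49 with whole-body limits of 10 and 50 CPM, and 75 with at least 10 counts in replicate 2. It was 120 to 265 with 1 library left out, the largest value without storage cell replicate 4. The median ratio was 10.2% and 3.85% with the limits of 10 and 50 CPM, 5.09% with TMM-scaled CPM, 3.32% with TPM, 22.5% and 46.1% with at least 5 and 10 counts, and 3.25% to 16.1% with 1 library left out, again highest without storage cell replicate 4. Leaving out whole body 1 or 3, or storage cell replicate 1, 4 or 5, moved it by over 1.5 times (8.58%, 10.3%, 10.8%, 16.1% and 3.25%), so the median is a loose summary of a wide range. The share of candidates present was 60.8% and 49.0% with at least 5 and 10 counts and 78.4% to 86.6% with 1 library left out. The share of candidates at 0 despite a prediction of at least 10 counts was 20.3%, and 13.4% to 21.6% with 1 library left out. Since all 153 candidates passed that prediction, it is the complement of the share present and adds nothing to it. The cause of these moves was not tested, other than that a looser or stricter limit admits other targets.

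The 3161 calls of the comparison of all targets became 4839 with limma on log2(TPM + 1), and 1167 to 4319 with 1 library left out. They fell to 1167, 1259 and 1217 without whole body 1, 2 or 3. With the replicate number as a block edgeR made 0 calls (3127 targets at an unadjusted p below 0.05, against 4525 without the block, and 4572 calls by DESeq2). Same-numbered libraries had correlations of deviations of 0.03, 0.03 and 0.01. The labels do not say whether the numbers pair the libraries, and correlations over all targets cannot decide it. The split of the members by whole body 2 kept its direction at ratios of 0.05, 0.5 and 1. The depth of 9977956 counts limits statements on the 20 members with 1 to 3 counts.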
